A study of Arabidopsis thaliana with 39 samples.

Results

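Plant microRNAs (miRNAs) are small RNAs cut by DICER-LIKE1 from the stem of a folded primary transcript. A single strand of the cut duplex is loaded into ARGONAUTE1 and guides the cutting, or the blocked translation, of mRNAs that pair with it. A miRNA's number in miRBase, the registry of miRNAs, follows the order of its registration. The low numbers therefore hold the abundant families conserved among plants, and the high numbers mostly hold sequences found later by deep sequencing. Many of the latter are known from Arabidopsis only, and a target or a function has been assigned to few of them. The mature miRNAs described here are the late-numbered ones of Arabidopsis thaliana, miR1886 and above. They were chosen by name alone: a counted sequence was taken when its name was miR1886 or a later number, except miR2111, miR2936, miR5642 and miR8176. The last is miR8184. Under this rule 124 distinct sequences, carrying 143 miRNA names, were kept, and 229 distinct sequences were left, which together make up all sequences counted.

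Small RNA was sequenced from Col-0 wild-type plants in 13 conditions with 3 biological replicates each, 39 libraries in all. Rosette leaves came from plants under mild drought at 30% soil water content (D30) with their controls (C30), 27 days old, and under severe drought at 20% (D20) with their controls (C20), 30 days old. Seedlings, 15 days old, were kept at 37 °C for 0.5 h (H0.5) or 6 h (H6) with unheated controls (H0). In another experiment seedlings of the same age were treated for 24 h with 250 mM NaCl (NaCl+), no copper (Cu-), 10 µM copper (Cu+), 10 µM cadmium (Cd+) or no sulfate (S-), with 1 shared set of controls (C). All plants were wild type, so no gene was removed or added in any group. The tables count only miRNAs, and the tissue labels could not be checked against marker genes.

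The libraries held 10238448 to 10741289 reads, of which 1018693 to 5036688 were assigned to miRNAs, and RNA integrity numbers lay between 8.0 and 9.3. The 3 NaCl+ libraries had the fewest miRNA reads, 1018693 to 1733990. The first C20 replicate stood apart among the leaf controls in 9 of the members examined. The 9 libraries of the heat experiment fell apart within their conditions for miR8183, miR8167a-f and miR8181, among other members, as described below. Severe drought is given with and without the first C20 replicate, and the heat comparisons with and without the 4 heat libraries that were high in miR8183.

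The 10 sequences that carried most of the reads are shown first, in order of their level. Each is written 5′ to 3′ as in the count tables, with T for U, and the capitals mark bases 2 to 8, the seed.
miR5026: aCTCATAAgatcgtgacacgt
miR8175: gATCCCCGgcaacggcgcca
miR5996: tGACATCCagatagaagctttg
miR4228-3p: tCGGATGCgaaacggtggtgt
miR3440b-3p: tGGATTGGtcaagggaagcgt
miR8167a-f: aGATGTGGagatcgtggggatg
miR5653: tGGGTTGAgttgagttgagttggc
miR8183: tTTAGTTGacggaattgtggc
miR5654-3p: tGGAAGATgctttgggatttatt
miR5023: aTTGGTAGtggataagggggc
No 2 of these 10 shared a seed. The seed of miR5653 is that of miR398b-5p and miR398c-5p, the passenger strands of a copper-regulated family, and its sequence holds tandem copies of GTTGA. The next set holds the members, other than those above, that differed under a stress or between seedlings and leaves.
miR3933: aGAAGCAAaatgacgactcgg
miR8181: tGGGGGTGggggggtgacag
miR5629: tTAGGGTAgttaacggaagtta
miR5656: aCTGAAGTagagattgggttt
miR5648-3p: aTCTGAAGaaaatagcggcat
miR5020a: tGGAAGAAggtgagacttgca
miR5641: tGGAAGAAgatgatagaatta
The last 2 of them, miR5020a and miR5641, share their seed. Another pair of members with a shared seed was miR1886.1 and miR5640. The sequences below show how close some members are.
miR5020a: tGGAAGAAggtgagacttgca
miR5020b: aTGGCATGaaagaaggtgaga
miR5020c: tGGCATGGaagaaggtgagac
miR1886.1: tGAGAGAAgtgagatgaaatc
miR1886.2: tGAGATGAaatctttgattgg
The longest run shared by miR5020a and miR5020c is 16 nt, and miR5020b and miR5020c share 12 nt. The sequences of miR1886.1 and miR1886.2 come from 1 hairpin and overlap by 12 nt. The pipeline first removed reads below a minimum length, which exceeds each of these shared runs. Reads without a match were then shortened at their ends and matched again. Whether any read of such a pair was counted under the other name was not tested.

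Each of the 124 sequences had an exact match in the TAIR10.1 genome inside an annotated MIR gene. None of their exact matches lay in a tRNA or rRNA gene. Inexact matches were not searched, and the sequences of processed tRNAs and rRNAs were not searched either. Whether a member, miR8175 included, is or resembles part of a tRNA or rRNA was therefore not tested. By the match inside the MIR gene, 60 of them were intergenic, with no other gene annotated there. A further 13 lay in exons of protein-coding genes outside the coding part, 20 in their introns, 18 opposite such a gene, 8 in or opposite other non-coding genes and 5 in or opposite pseudogenes. miR5026 lies at chr4:7844612-7844632 on the plus strand, within the non-coding gene AT4G13495. miR8175 lies at chr2:3740938-3740957 on the plus strand between genes, and miR5996 at chr4:7882848-7882869 on the minus strand, in a non-coding exon part of UNE15. miR8183, at chr3:11747799-11747819 on the minus strand, and miR3440b-3p, at chr3:6217559-6217579 on the plus strand, each lie in a pseudogene. miR5023 lies at chr3:5497070-5497090 and miR5653 at chr1:19026915-19026938, both on the minus strand between genes. miR3933 was placed at chr5:15758111-15758131 on the plus strand between genes, miR8181 at chr5:21641289-21641308 on the minus strand over AT5G53340, and miR5629 at chr5:3802933-3802954 on the plus strand in a non-coding exon part of NDL2. The genome held more than 1 match for 35 members, among them miR5026 and miR8175 with 2 each, miR8167a-f with 7 and miR5643a,b with 15, and the reads of such a member cannot be traced to 1 locus.

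The late-numbered miRNAs were 21 nt long in 97 of 124 cases. A 5′ uridine, the base favoured by ARGONAUTE1, stood at the start of 59 of them (47.6%), against 139 of the 229 other sequences (60.7%). A 5′ adenosine was found in 49 members (39.5%) and in 36 of the others (15.7%). Among the 10 most abundant members 6 began with U, 3 with A and 1, miR8175, with G. At 75% GC, miR8175 and miR8181 were the members with the highest GC content, beside a median of 38.1% and a lowest value of 19%.

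Together the 124 sequences took 367104 of the 148455193 miRNA reads (0.247%), and the reads were concentrated in few of them. miR5026 alone held 53.0% of the members' reads, the 3 most abundant held 74.3% and the 10 most abundant 88.5%. Levels are given below as reads per 1000000 miRNA reads of the library (CPM). They are not divided by length, since each read stands for a whole miRNA. A mean over 1 CPM was reached by 54 members, over 10 CPM by 19, over 100 CPM by 3 (miR5026, miR8175 and miR5996) and over 1000 CPM by miR5026 only. The median member had 0.457 CPM, and the median of the other 229 sequences was 5.73 CPM.

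Reads were found in all 39 libraries for 39 members (31.5%), in 11 to 38 libraries for 46, in 1 to 10 libraries for 24, and in none for 15. Of the 229 other sequences 126 (55.0%) had reads in all libraries and 17 in none. The miRNAs from miR770 to miR870, which also were registered after the conserved families, fell between them with 39 of 96 (40.6%) in all libraries and 8 in none. The 15 members with 0 reads in every library included miR5013, miR5015, miR5016, miR5017-3p, miR5017-5p, miR5018, miR5019, miR5022, miR4227 and miR4239. As 3 reads correspond to 0.596 CPM in the deepest library and 2.94 CPM in the shallowest, a count of 0 allows a level of up to these values in a single library, by counting error alone. A further 9 members had no more than 3 reads in all libraries together.

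The members seen in every library ranged from miR5026 at a mean of 1386 CPM down to miR1888b at 1.46 CPM. Between 10 and 100 CPM stood miR4228-3p (67.4 CPM), miR3440b-3p (64.7 CPM), miR8167a-f (53.4 CPM), miR5653 (51.0 CPM), miR8183 (41.6 CPM), miR5654-3p (40.3 CPM) and miR5023 (36.9 CPM), then miR5648-3p, miR5656, miR5997, miR5629, miR8165, miR5659, miR5652, miR5657 and miR5643a,b between 26.7 and 11 CPM. The other members seen in all 39 libraries were miR1888a, miR1886.2, miR5020a, miR5641, miR5631, miR5663-5p, miR5661, miR5024-5p, miR5654-5p, miR5655, miR5644, miR5999, miR8173, miR1886.1, miR8121, miR5635a-d, miR5020b, miR8172, miR5024-3p and miR1888b, at 9.99 to 1.46 CPM. The mean of miR8183 rested on 4 heat libraries at 239 to 380.4 CPM, and over the other 35 libraries it was 13.3 CPM, which put miR8183 at place 18 among the members.

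**Figure D1:**
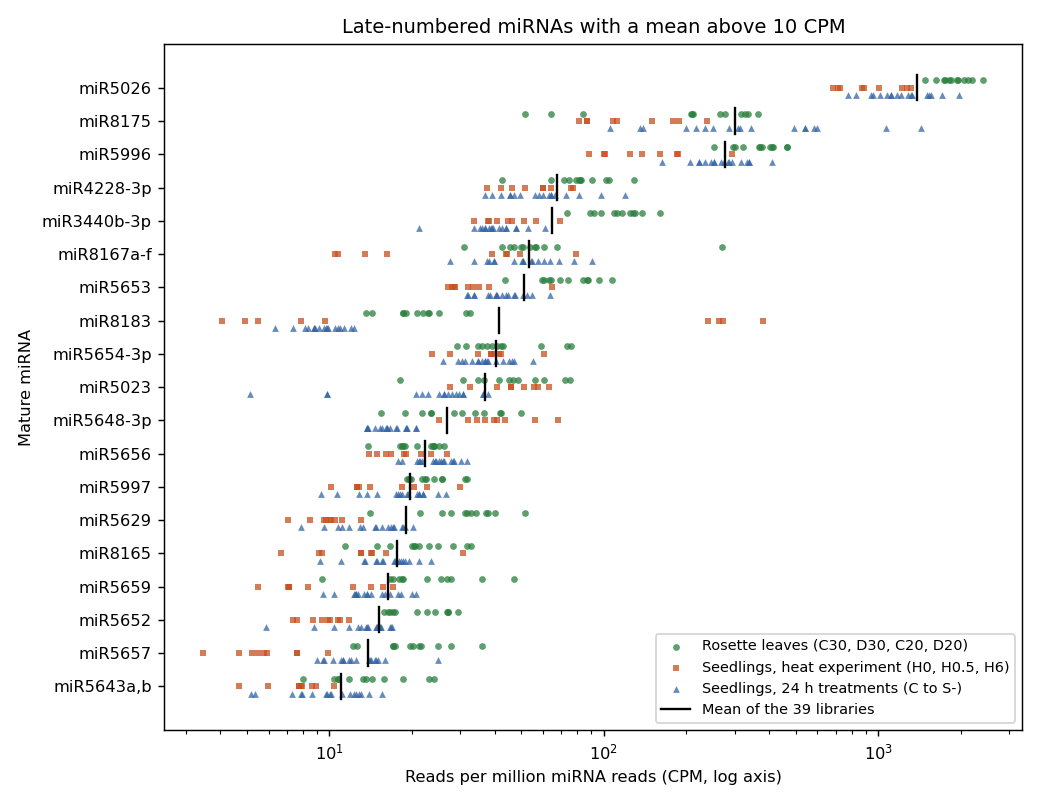
Levels of the 19 late-numbered miRNAs with a mean above 10 CPM, 1 line each, in reads per 1000000 miRNA reads on a log axis. Points are single libraries of rosette leaves, of the heat experiment's seedlings and of the seedlings treated for 24 h, and the black line is the mean of the 39 libraries. The mean of miR5026 lies to the right of those of the other members and its libraries spread from 684 to 2419 CPM, miR8175 spreads from 51.6 to 1428 CPM, and miR8183 has 4 heat-experiment libraries far above the rest.

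The blocks of numbers differed in how many of their members were seen. Of the 4 sequences from miR5995 to miR5999, 3 had reads in all libraries, and of the 6 from miR1886 to miR1888, 4 did. In the block miR5595 to miR5666, the largest, 17 of 45 were found everywhere and none was without reads. In the block miR5012 to miR5029, which holds miR5026, 9 of 24 had no read and 6 were seen everywhere. None of the 8 members from miR2112 to miR2939 was seen in all libraries and each stayed below 1 CPM. A single sequence is registered as both miR5595a and miR5995b and was left out of these counts.

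Both strands of the hairpin were counted for 15 hairpins, and where one was abundant the other usually was not. miR4228-3p had 9410 reads and miR4228-5p 11, miR3440b-3p 9202 and miR3440b-5p 31, miR5639-5p 306 and miR5639-3p 4, and miR5663-5p 918 and miR5663-3p 20. The strands were closer for miR5648 (4046 reads for the 3p and 240 for the 5p strand), miR5654 (5817 for the 3p and 614 for the 5p strand) and miR5024 (659 for the 5p and 219 for the 3p strand). For miR3440b, miR4228, miR5648 and miR5654 the 3p strand, and for miR5024 and miR5663 the 5p strand, had more reads in each of the 39 libraries. The annotated miR5017 hairpin gave no read from either strand.

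Between 60 and 84 of the 124 members (48.4% to 67.7%) had a read in a given library. The number was lowest in NaCl+, with 68, 70 and 60 members, and the C libraries had 78, 78 and 84, so that these groups did not overlap. The difference of -14.0 members had an exact two-sided permutation p of 0.1, the smallest that 3 against 3 libraries can give, and 0.45 after adjustment over the 9 stress comparisons. The NaCl+ libraries were also the shallowest. At an equal depth of 1000000 miRNA reads the expected number was 61.0 ± 2.11 in NaCl+ and 59.6 ± 1.09 in C (SD, n = 3), and NaCl+ was no longer lower. Cadmium gave 72, 74 and 77 members against the same controls, again without overlap (exact permutation p = 0.1, adjusted p = 0.45). At equal depth the members expected in Cd+ were 57.2 ± 1.60 (SD, n = 3), again below all C libraries. Cu- and S- overlapped C in the number of members with a read, and at equal depth they lay below it without overlap, at 56.6 ± 0.652 and 57.7 ± 0.529 members (SD, n = 3). For each of these 3 equal-depth differences the exact permutation p was 0.1 and the adjusted p 0.3. In the other 5 stress comparisons the groups overlapped at both depths.

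**Figure D2:**
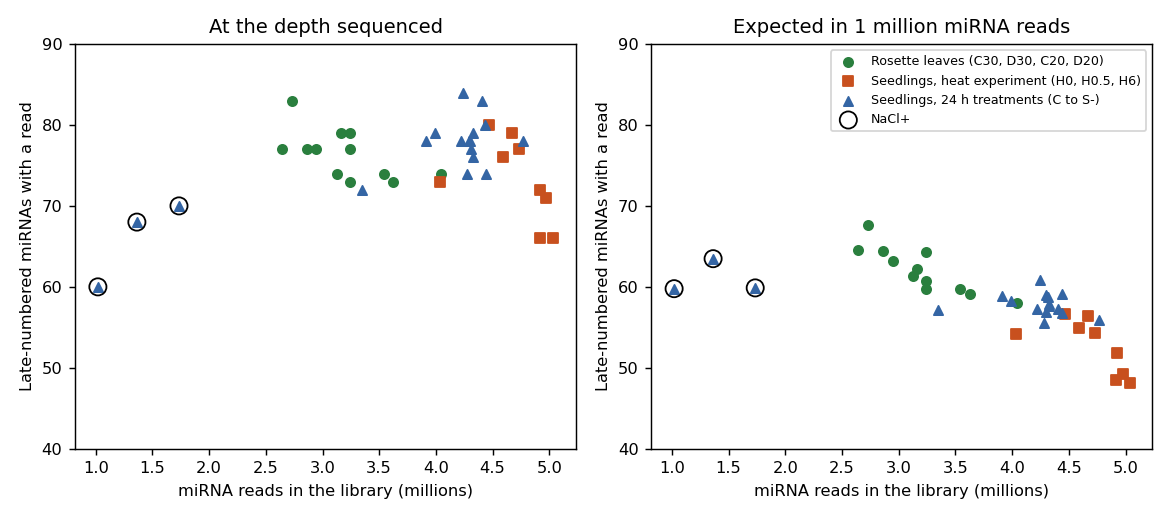
Number of late-numbered miRNAs with at least 1 read in each library (left) and the number expected had each library held 1000000 miRNA reads (right), against the library's miRNA reads. Points are the 39 libraries by experiment, and rings mark NaCl+. The NaCl+ libraries have 60 to 70 members at their own depth, and at equal depth 59.8 to 63.5.

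The summed level of all members was 2387.6 ± 371 CPM in the 6 unstressed seedling libraries and 3227 ± 447 CPM in the 6 unstressed leaf libraries (SD, n = 6 each). The difference, seedlings minus leaves, was -839.7 CPM (exact two-sided permutation p = 0.0108). Leaves and seedlings also differ in age, medium and experiment, and these cannot be told apart. Without miR5026 the difference shrank to -178 CPM (exact permutation p = 0.26), and per 1000000 genome-mapped reads it was -69.97 (exact permutation p = 0.634). miR5026 itself had 1485 to 1942 CPM in C20, 1733 to 2419 CPM in C30, 887 to 1274 CPM in H0 and 1019 to 1532 CPM in C. In none of the 9 stress comparisons did the adjusted p of the summed level fall below 0.3. The groups did not overlap for H0.5, Cu- and Cd+, which differed from their controls by -356, -759 and -668 CPM (exact permutation p = 0.1 each, adjusted p = 0.3 each). In NaCl+ the sum was 3516 ± 632 CPM against 2694 ± 248 CPM in C with overlapping values. Per 1000000 genome-mapped reads the NaCl+ sum was below that of the controls, 461 ± 98.1 against 1068 ± 156 (SD, n = 3), without overlap.

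Each stress was then compared with its own control sequence by sequence. The test was edgeR's quasi-likelihood test with TMM scaling over every sequence that passed the count filter, members and others, and a sequence was called at an adjusted p under 0.05. In the 9 stress comparisons 45 members passed the filter at least once and 28 passed it in all 9. Of 324 member tests 5 were called, and of the 1458 tests over all sequences 136 were. The calls fell on 4 members, miR5023, miR4228-3p, miR8175 and miR5641, in salinity, copper deficiency and cadmium. The comparisons of 5 treatments (NaCl+, Cu-, Cu+, Cd+ and S-) used the same 3 control libraries.

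Salinity changed 2 of the 29 members tested, beside 33.3% of all 156 sequences tested. miR5023 fell from 27.0, 29.6 and 20.7 CPM in C to 5.14, 9.80 and 9.82 CPM in NaCl+. All 3 NaCl+ libraries were below all 3 controls, with a log2 fold change of -1.78 ± 0.33 (SE, edgeR adjusted p = 0.00147). The NaCl+ values rest on 7, 17 and 10 reads. miR4228-3p rose from 42.1, 59.8 and 58.2 CPM to 81.5, 98.0 and 120 CPM, also without overlap (log2 0.74 ± 0.27, edgeR adjusted p = 0.04995). This second call lies at the threshold and held in 3 of 12 alternatives, with adjusted p between 0.0100 and 0.178 over all 12. With scaling by genome-mapped reads its sign turned to -0.68 (adjusted p = 0.0557). That scaling moved the median of all sequences by -1.46 on the log2 scale in this comparison, and 27 of the 29 members were then called. With TMM scaling 10 members were above and 19 below 0, with a median of -0.32, and of all 156 sequences 86 were above 0 with a median of 0.13.

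Copper deficiency lowered miR8175, 1 of 37 members tested, beside 10.5% of all 162 sequences tested. The level was 539, 600.1 and 494 CPM in C and 234, 106 and 136 CPM in Cu-. The highest Cu- library lay below the lowest control, and the log2 fold change was -1.66 ± 0.27 (SE, edgeR adjusted p = 0.0136). Without the third Cu- replicate the adjusted p was 0.0514 at a log2 fold change of -1.55. The members' median was -0.04, with 17 above and 20 below 0, and the median of all sequences was 0.11, with 91 of 162 above 0.

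Cadmium lowered 2 of 37 members tested, beside 11.2% of all 160 sequences tested. miR8175 had 287, 217 and 199 CPM in Cd+ and was lower than in each control (log2 -1.18 ± 0.17, edgeR adjusted p = 0.0119). The call held in all 12 alternatives. miR5641 had 11.2, 10.2 and 10.6 CPM in C and 5.07, 5.61 and 4.87 CPM in Cd+, without overlap (log2 -1.01 ± 0.22, edgeR adjusted p = 0.0220). The call of miR5641 held in 5 of 12 alternatives and was lost with DESeq2 and with the replicate block. It was also lost without the first or the third C replicate or any 1 Cd+ replicate (edgeR adjusted p up to 0.123). Without the first C replicate, the third C replicate or any Cd+ replicate, miR8175 was the only member called, and without the second C replicate 5 were. There were 16 members above and 21 below 0, with a median of -0.10, and of all sequences 77 of 160 were above 0 with a median of -0.02.

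miR8175 was the member that differed most often. In Cu+ it had 344, 309 and 139 CPM and in S- 250, 313 and 584 CPM, against the same controls. All Cu+ libraries were below the controls, yet the adjusted p was 0.187 (log2 -1.0 ± 0.30), and S- overlapped them (log2 -0.45 ± 0.31, edgeR adjusted p = 0.821). In NaCl+ the level was 1428, 543 and 1068 CPM (log2 0.79 ± 0.35, edgeR adjusted p = 0.113). Sign and call for NaCl+ depended on the setting: miR8175 was called higher with total miRNA counts (0.90, edgeR adjusted p = 0.0377) and without the second NaCl+ replicate (1.11, adjusted p = 0.0114), and lower with genome-mapped reads (-0.73, adjusted p = 0.0462). Since NaCl+, Cu-, Cu+, Cd+ and S- shared their controls, a high level in the 3 C libraries would enter all of them alike. The unstressed seedlings of the heat experiment, of the same age, had 150, 238 and 108 CPM, all below the C libraries and between the lowest Cu- library and the highest Cd+ library. By the paper, the 24 h treatments were given in liquid medium and the heat on plates. Medium and experiment therefore cannot be told apart between H0 and C. In the leaves the level was 210, 63.9 and 211 CPM in C30 and 366, 51.6 and 83.7 CPM in C20. In CPM the means ran from 119 ± 60.1 in H0.5 to 1013 ± 445 in NaCl+ (SD, n = 3), an 8.53-fold range. Per 1000000 genome-mapped reads the highest mean was that of C, 214 ± 13.1, against 129 ± 55.0 in NaCl+, and the lowest that of C20, 47.2 ± 42.5 (SD, n = 3). Ordered by mean CPM, Cu-, C30, H0 and C20 lay between 158 and 167 CPM and did not differ beyond their spread. The C20 mean rested on its first replicate, and the mean of the other 2 C20 libraries, 67.6 CPM, was below that of H0.5.

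**Figure D3:**
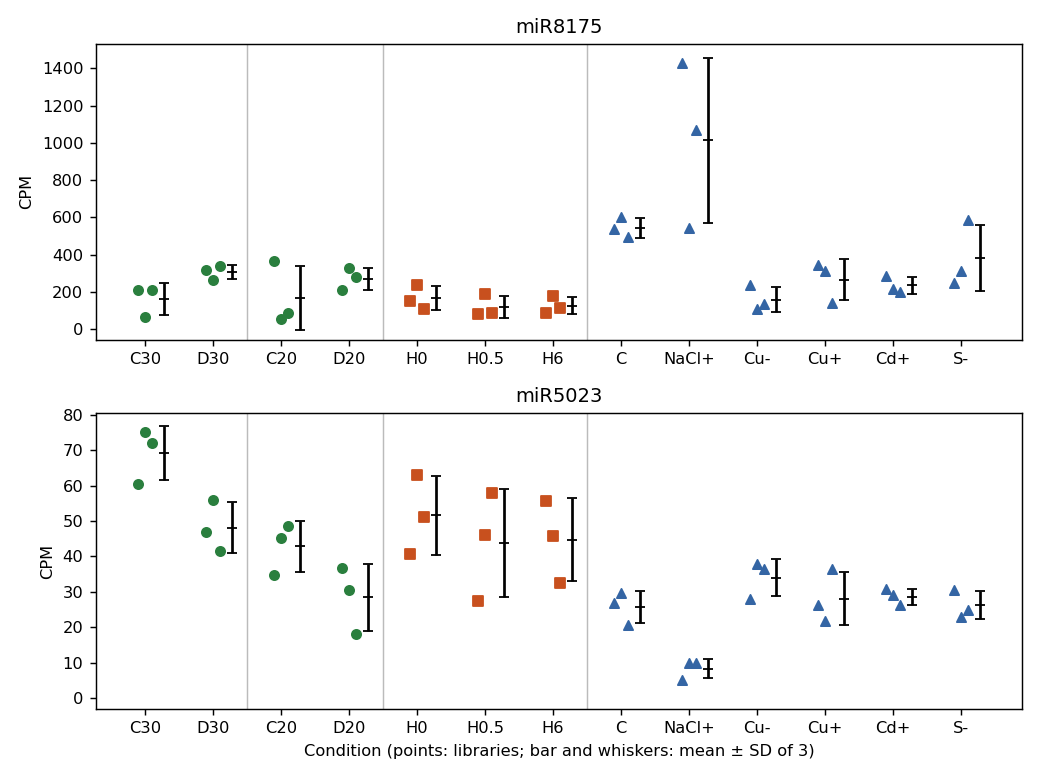
Levels of miR8175 (top) and miR5023 (bottom) in reads per 1000000 miRNA reads in the 13 conditions. Points are libraries, the short bar and whiskers beside them the mean ± SD of 3, and vertical lines separate the experiments. miR8175 is between 494 and 600.1 CPM in the C libraries and at most 344 CPM in Cu-, Cu+ and Cd+, and miR5023 is lowest in NaCl+ at 5.14 to 9.82 CPM.

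miR5023 was otherwise between 18.0 and 75 CPM in every library outside NaCl+. Under drought it was lower in both comparisons without a call. It had 60.5, 75 and 72.0 CPM in C30 and 46.8, 55.9 and 41.6 CPM in D30 (log2 -0.62 ± 0.22, edgeR adjusted p = 0.211). In C20 it had 34.8, 45.2 and 48.5 CPM and in D20 36.7, 30.6 and 18.0 CPM (log2 -0.86 ± 0.33, edgeR adjusted p = 0.115). The D30 values did not overlap with their controls and the D20 values did.

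Mild drought called none of 38 members, beside 0.602% of all 166 sequences. At an unadjusted p under 0.05 edgeR had 6 members and 15.1% of all sequences, DESeq2 called 0 members and 2.41% of all after adjustment, and an F test of the CPM values without adjustment of p gave 8 of 96 members and 9.59% of all. The smallest adjusted p was shared by miR1888a and miR5023. miR1888a had 8.95, 11.7 and 6.43 CPM in C30 and 26.8, 14.7 and 13.4 CPM in D30 (log2 0.91 ± 0.32, edgeR adjusted p = 0.211). The groups did not overlap, and neither did those of miR5023 (log2 -0.62 ± 0.22). In all 23 members were above 0 with a median of 0.08, and 84 of all 166 sequences with a median of 0.003.

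Severe drought called none of 39 members, beside 19.8% of all 167 sequences. edgeR had 6 members and 34.1% of all at an unadjusted p under 0.05, DESeq2 called 3 members and 24.0% of all, and the F test gave 7 of 100 members and 19.9% of all. The 3 members under DESeq2 were miR5648-3p, miR5654-3p and miR8167a-f. miR5648-3p had 23.5, 15.4 and 18.8 CPM in C20 and 42.3, 34.0 and 36.7 CPM in D20, without overlap (log2 0.72 ± 0.22, edgeR adjusted p = 0.0570). It lay under the threshold in 5 of 12 alternatives, without the first C20 replicate among them (adjusted p = 0.0360). Its values in C30 were 23.5, 28.4 and 21.8 CPM and in D30 49.9, 41.8 and 30.4 CPM, again without overlap (log2 0.63 ± 0.24, edgeR adjusted p = 0.239). miR5654-3p had 42.9, 35.9 and 39.2 CPM in C20 and 73.7, 76.0 and 59.1 CPM in D20 (log2 0.57 ± 0.21, edgeR adjusted p = 0.107).

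The first C20 replicate decided several of the values for severe drought. It had 270.2 CPM of miR8167a-f, where the other 5 leaf controls had 30.9 to 67.6 CPM and D20 53.8, 60.5 and 42.7 CPM. Its miR8175 level of 366 CPM was also above the 51.6 and 83.7 CPM of the other C20 replicates. Without this library 4 members were called in D20: miR5648-3p (log2 0.89), miR5654-5p (log2 1.64), miR8175 (log2 1.75) and miR5023 (log2 -0.97). With all libraries edgeR called 19.8% of all sequences in D20, and the share without this library is not given here. Without the second C20 replicate miR8167a-f alone was called, at -1.73. Over all libraries the members' median was -0.11, with 13 above and 26 below 0, and that of all sequences -0.11, with 65 of 167 above 0.

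The change in D20 was compared with that in D30 by an interaction term. No member of 41 was called, beside 3.39% of all 177 sequences, while 2 members and 19.8% of all had an unadjusted p under 0.05, and DESeq2 called 0 members and 12.4% of all. The smallest adjusted p, 0.117 by edgeR, was that of miR5654-5p (log2 difference 1.64 ± 0.56). It had 8.33, 7.41 and 9.15 CPM in C30, 4.75, 5.65 and 8.95 CPM in D30, 6.97, 1.93 and 3.40 CPM in C20, and 6.98, 12.5 and 10.1 CPM in D20. The median over the members was -0.13 with 19 above 0, and over all sequences 0.07 with 96 above 0. Without the first C20 replicate or without the first D20 replicate miR5654-5p was called, at 2.17 and 1.87.

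Heat for 0.5 h called none of 35 members, beside 1.23% of all sequences tested. edgeR had 3 members and 12.3% of all at an unadjusted p under 0.05, DESeq2 called 0 members and 4.29% of all, and the F test gave 7 of 99 members and 9.86% of all. miR4228-3p came closest with 60.2, 37.6 and 51.7 CPM in H0 and 60.2, 64.1 and 75.7 CPM in H0.5 (log2 0.83 ± 0.25, edgeR adjusted p = 0.193). A fold change above 0 was found for 27 members, with a median of 0.16 over the members, and for 112 of all sequences, with a median of 0.13. Heat for 6 h called none of 35 members, beside 6.79% of all 162 sequences. No member but 11.7% of all sequences had an unadjusted p under 0.05, DESeq2 called 0 members and 9.26% of all, and the F test gave 3 of 97 members and 9.44% of all. The smallest adjusted p was shared by miR5024-5p (log2 0.69 ± 0.39) and miR5644. miR5644 had 2.36, 2.64 and 4.25 CPM in H0 and 7.43, 3.18 and 3.49 CPM in H6, which overlapped (log2 0.84 ± 0.47, edgeR adjusted p = 0.519). The members' median was 0.18, with 23 above 0, and that of all sequences 0.07, with 88 above 0.

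Within the heat experiment some members split the replicates of each condition, and 3 of them are given first. miR8183 had 4.07, 380.4 and 4.92 CPM in H0, 5.49, 239 and 271 CPM in H0.5, and 9.66, 264 and 7.84 CPM in H6. The high values rest on 1872, 1190, 1334 and 1328 reads, and in every other library of the series the level was 4.07 to 32.6 CPM. The second replicate of each condition and the third of H0.5 were high. The same 4 libraries were low for miR8167a-f, which had 43.9, 16.3 and 44.3 CPM in H0, 39.1, 10.5 and 13.4 CPM in H0.5, and 79.3, 10.7 and 49.4 CPM in H6. They were low for miR8181 as well, with 18, 0 and 16 reads in H0, 9, 1 and 1 in H0.5, and 11, 2 and 6 in H6. The split was not confined to these 3 members. miR5996 was also lower in the 4 libraries, without overlap. It had 186, 100 and 186 CPM in H0, 160, 124 and 88.1 CPM in H0.5, and 138, 101 and 293 CPM in H6. miR5999 and miR5659 split the same way, while the values of miR5026 overlapped. All of these members were picked after their values had been seen, and no test was made of this split. In the heat comparisons the log2 fold change of miR8183 was 0.76 ± 1.87 for 0.5 h and -0.07 ± 1.93 for 6 h (edgeR adjusted p = 0.981 and 0.984). Without the 4 libraries, left out after their values had been seen, these became 0.44 ± 0.38 and 0.96 ± 0.38 (adjusted p = 0.547 and 0.216), so that for 6 h the sign turned. Heat for 0.5 h then called 0 of 41 members, beside 11.4% of all 176 sequences, and heat for 6 h 0 of 37, beside 8.54% of all 164, with 3 members and 1 member at an unadjusted p under 0.05. The value of miR4228-3p at 0.5 h fell to 0.25 ± 0.22 (edgeR adjusted p = 0.547). H0.5 kept 1 library in this fit, which was assumed to vary like those of H0.

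**Figure D4:**
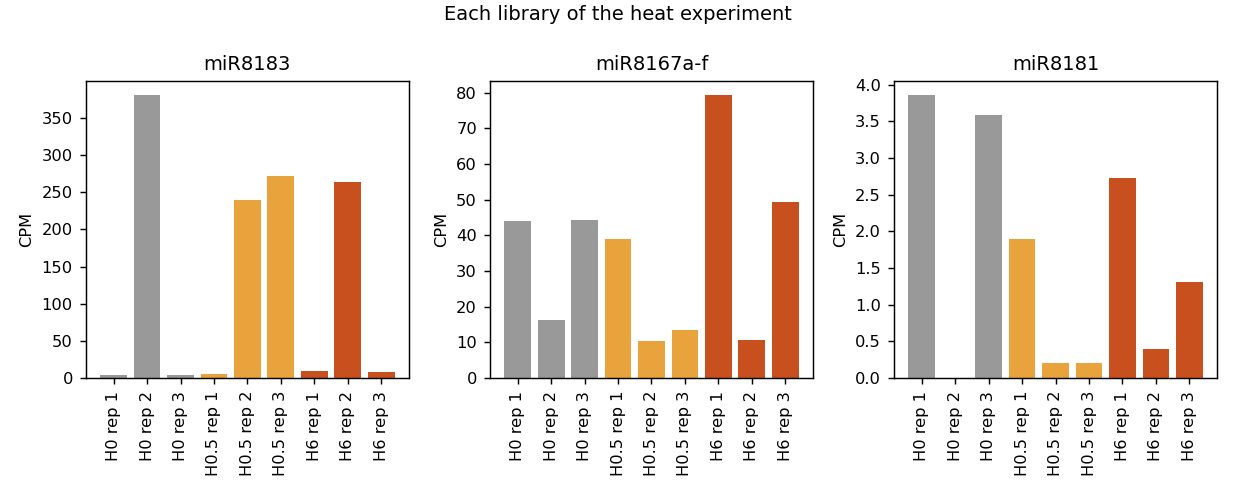
Levels of miR8183, miR8167a-f and miR8181 in reads per 1000000 miRNA reads in each of the 9 libraries of the heat experiment, 1 bar per library, grey for H0, light orange for H0.5 and dark orange for H6. In the second replicates and the third H0.5 replicate miR8183 reaches 239 to 380.4 CPM while miR8167a-f and miR8181 are at their lowest, 10.5 to 16.3 CPM and 0 to 0.397 CPM.

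Copper excess called none of 37 members, beside 1.24% of all 161 sequences. miR8175 alone and 12.4% of all sequences had an unadjusted p under 0.05 in edgeR, DESeq2 called 0 members and 3.73% of all, and the F test gave 4 of 100 members and 8.01% of all. The members' median was -0.07, with 16 above 0, and that of all sequences -0.01, with 78 above 0. Sulfur deficiency called 0 of 37 members and 0% of all 161 sequences by edgeR, and also 0 of both by DESeq2. At an unadjusted p under 0.05 edgeR had 0 members and 4.97% of all, and the F test gave 5 of 100 members and 5.15% of all. miR5996 had the smallest p, with 253, 233 and 268 CPM in C and 252, 412 and 317 CPM in S-, which overlapped (log2 0.42 ± 0.21, edgeR adjusted p = 0.821). The members' median was -0.05, with 14 above 0, and that of all sequences 0.01, with 83 above 0.

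Unstressed seedlings (H0 and C) and unstressed leaves (C30 and C20) differed in 8 of 38 members tested, beside 39.1% of all 161 sequences. Leaves were higher in miR3933, miR8181 and miR5629, and seedlings in miR8175, miR5020a, miR5648-3p, miR5656 and miR5654-3p. Of the members 17 were above and 21 below 0, with a median of -0.04, and 79 of all sequences were above 0 with a median of -0.02. Age, medium and experiment differ along with the organ in this comparison and cannot be told apart from it.

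The clearest difference was that of miR3933. It had 2.78 to 5.86 CPM in the 6 leaf controls (median 5.04) and 0.224 to 1.40 CPM in the 6 seedling controls (median 0.459). The groups did not overlap, and the log2 fold change of seedlings over leaves was -2.40 ± 0.43 (SE, edgeR adjusted p = 0.000419). The seedling control values rest on 1 to 6 reads a library. With the stressed libraries included, the range over the 12 leaf libraries was 2.78 to 6.79 CPM, and over the 27 seedling libraries 0 to 1.96 CPM. The call held in all 19 alternatives, also against the H0 seedlings alone (-2.57) and the C seedlings alone (-2.15). miR8181 was 7.10 to 12.7 CPM in the leaf controls and 0 to 3.86 CPM in the seedling controls (log2 -1.53 ± 0.53, edgeR adjusted p = 0.0313). It was also higher in each of the 12 leaf libraries, from 5.38 CPM, than in any seedling library, to 4.18 CPM. With the H0 seedlings alone, of which the second replicate had no read of it, the adjusted p was 0.177.

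miR5629 had 14.1 to 51.7 CPM in the leaf controls and 8.51 to 18.4 CPM in the seedling controls, with an overlap through the third C30 replicate (log2 -0.76 ± 0.27, edgeR adjusted p = 0.0368). The call was lost in 11 of 19 alternatives. miR8175 was called higher in seedlings (log2 1.63 ± 0.52, edgeR adjusted p = 0.0237), and the values overlapped. Against the C seedlings alone the log2 fold change was 2.32 and against the H0 seedlings alone 0.71 (adjusted p = 0.353). miR5648-3p went the other way, at 1.49 with the H0 seedlings alone and 0.20 with the C seedlings alone (adjusted p = 0.486), and miR5020a was 1.47 with C alone and 0.53 with H0 alone (adjusted p = 0.282). Each of these 3 differences was called against 1 of the seedling control sets and not against the other. For miR8183 the second H0 replicate set the sign: the log2 fold change was 2.07 ± 1.02 with it (edgeR adjusted p = 0.124) and -0.97 without it (adjusted p = 0.00588).

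miR5656 and miR5654-3p had overlapping CPM in leaf and seedling controls, 13.8 to 25.0 against 18.7 to 28.1 CPM and 29.2 to 42.9 against 34.7 to 41.6 CPM. Their calls as higher in seedlings (log2 0.84 ± 0.19, edgeR adjusted p = 0.00321, and log2 0.64 ± 0.17, edgeR adjusted p = 0.00996) depended on the scaling. With total miRNA counts in place of TMM the median of all sequences moved by -0.55 on the log2 scale, the values became 0.28 and 0.07, and neither was called (adjusted p = 0.222 and 0.668). The other 3 calls as higher in seedlings were lost under this scaling too, miR8175 at 1.11, miR5020a at 0.50 and miR5648-3p at 0.36 (edgeR adjusted p = 0.0898, 0.216 and 0.305). With genome-mapped reads miR5020a and miR5648-3p were not called either (adjusted p = 0.0855 and 0.0761). Scaling by total miRNA counts called 15 members, all of them lower in seedlings, miR5026 (-0.62), miR5996 (-0.75) and miR3440b-3p (-1.13) among them. miR3933, miR8181 and miR5629 were lower in seedlings with every scaling.

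**Figure D5:**
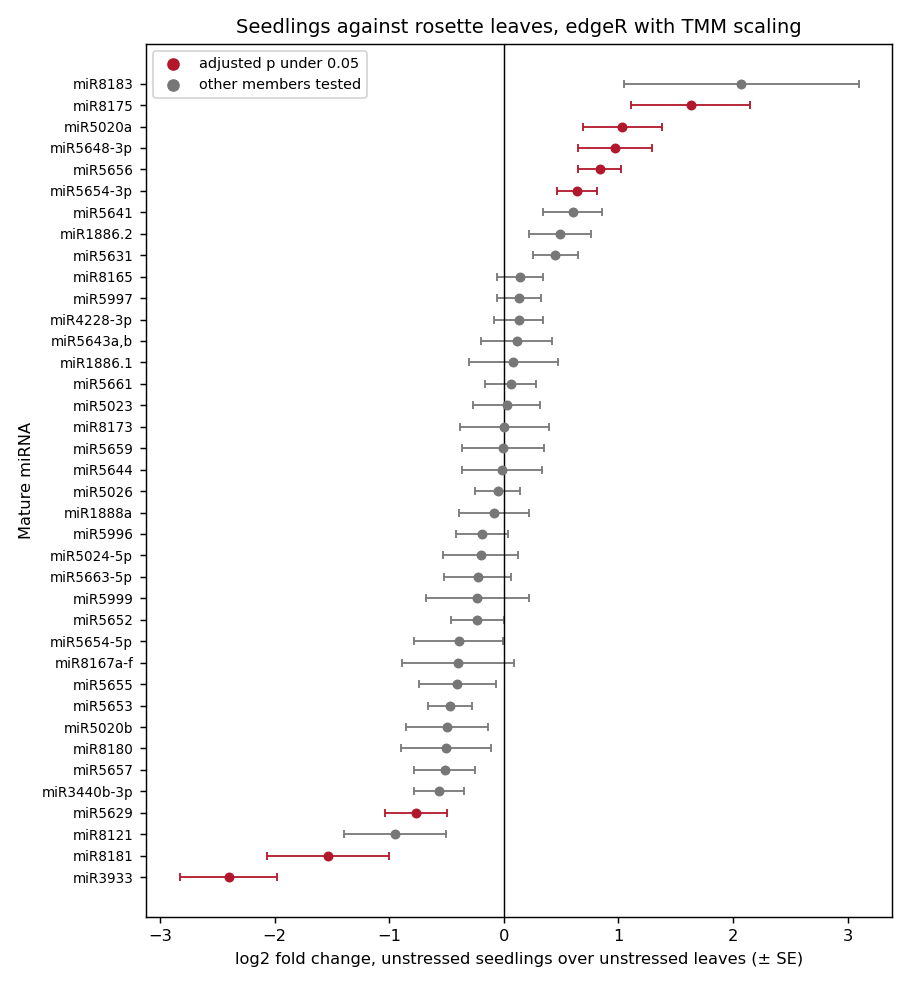
Log2 fold change of unstressed seedlings over unstressed leaves for the 38 late-numbered miRNAs tested, with the SE of each from edgeR with TMM scaling (6 libraries a group). Red points passed an adjusted p under 0.05. miR3933 lies lowest at -2.40, and miR8183, at 2.07 with an SE of 1.02, was not called.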

How the data were processed

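Small RNA was sequenced on an Illumina HiSeq instrument from 3 biological replicates of each of 13 conditions. The authors checked the reads against the genome with Bowtie 1.0.0 (TAIR10), removed short reads, assigned those left to miRBase's mature sequences and, where a read had no match, shortened it from either end and tried again. The deposited tables give counts of reads per mature miRNA in every library, not normalized, and CPM values that the authors obtained by dividing the counts by the library's miRNA reads. The deposited summary table also gives the reads of each library, the percent mapped to the genome and the RNA integrity number, a quality score. CPM was computed again here from the deposited counts. Of 6696 deposited CPM values of the members 14 differed by over 2%, with at most 3 reads behind each. The tables also hold the authors' own fold changes and p-values, which were not used.

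Names with the same sequence were joined. Every test was run over all sequences with edgeR 4.0.16 in R 4.3.3 (TMM scaling, quasi-likelihood test, filterByExpr with a minimum count of 10, Benjamini-Hochberg adjustment over all sequences tested, threshold 0.05), after it had been tested on simulated data. DESeq2 1.42.0, a one-way F test on CPM, 3 other scalings, no filter beyond 1 read, a replicate block and leaving out each library in turn were the alternatives. Sums and numbers of members detected were compared with exact two-sided permutation tests (Python 3.11.15), and the number expected in 1000000 reads was computed by drawing without replacement. Confidence in a count is limited by sampling, and reads carry no molecular identifiers. Replicates are biological by label, and no 2 libraries of a group agreed within sampling noise.

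Members were named in the text when called, among the 10 with the highest mean, with the smallest adjusted p of a comparison without a call, with reads in all libraries, or with both strands counted. The members and lists were chosen with earlier results of these data known. Sequences were placed by exact match in TAIR10.1 with RefSeq's annotation. Same-numbered replicates deviated together, every correlation over 0.1, only in H6 against H0 (0.35 to 0.72) and Cu+ against C (0.19 to 0.33). The block called no member in either.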

Additional observations from a re-analysis of the deposited data

Results flagged for a closer look

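Each of 41 members, as well as the summed level and the number of members detected, was looked at in the 6 unstressed leaf and the 6 unstressed seedling libraries for 1 library far from the other 5, which made 86 groups. Such a library was found in 10 of them. The rule was Dixon's, a gap to the nearest value above 0.625 of the range. It gives about 1 in 20 by chance when the 6 values come from a single normal distribution. Each group here pools unlike control sets, so this rate need not hold. Members of the same library are also not independent of each other.

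The first C20 replicate was the library in 9 cases. It had 270 CPM of miR8167a-f (the other leaf controls 30.9 to 67.6 CPM), 46.9 CPM of miR5659 (9.40 to 18.5 CPM), 35.9 CPM of miR5657 (17 to 21.6 CPM) and 31.5 CPM of miR8183 (18.5 to 22.9 CPM). It also had 23.1 CPM of miR5643a,b (8.02 to 13.6 CPM), 15.8 CPM of miR5641 (4.70 to 8.64 CPM) and 15.0 CPM of miR1886.2 (6.48 to 9.57 CPM). For miR5655 it had 11 CPM (4.21 to 6.07 CPM) and for miR5635a-d 4.03 CPM (1.24 to 2.16 CPM). All 9 values were above the others. The cause was not tested.

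The other case was miR8183 in the second H0 replicate, with 380 CPM where the other unstressed seedling libraries had 4.07 to 12.3 CPM.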

How the results depend on the processing

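The calls of miR5023 in NaCl+, miR8175 in Cd+ and miR3933 between organs held in every alternative run. In D20, 1 member was called with RLE scaling, 2 with total miRNA counts, 1 with genome-mapped reads and 3 with DESeq2. In H6, 1 was called without the count filter. In NaCl+, 27 were called with genome-mapped reads, under which miR4228-3p had -0.68 and miR8175 -0.73, and in Cd+ DESeq2 called 1. NaCl+ also gave calls of miR3440b-5p and miR5648-5p without the count filter (edgeR adjusted p = 0.0495 and 0.0475). These 2 had 1 to 3 reads in each NaCl+ library. With RLE scaling miR8167a-f was called in NaCl+ (edgeR adjusted p = 0.0476). Cd+ also gave a call of miR5997 without the filter, with genome-mapped reads and with total miRNA counts (edgeR adjusted p = 0.0290, 0.0450 and 0.0391). The one-way F test, unadjusted and unfiltered, gave 8 (D30), 7 (D20), 7 (H0.5), 3 (H6), 14 (NaCl+), 6 (Cu-), 4 (Cu+), 8 (Cd+) and 5 (S-) members. In NaCl+ these were 14 of 95 members, beside 24.9% of all sequences. In Cu- they were 6 of 99, beside 15.8%, and in Cd+ 8 of 99, beside 13.5%. The shares for the other comparisons are given above. Of the 62 member calls by the F test 28 had at most 10 reads in each library, and 5 were also edgeR calls. Between seedlings and leaves 15 members were called with total miRNA counts, 13 without the count filter and 13 with DESeq2. The 13 with DESeq2 were of 38 members tested, beside 47.2% of all 161 sequences. With the H0 or the C seedlings alone, chosen after seeing the data, 7 and 10 members were called. For the other scalings, the fits without the filter and these seedling subsets, the share of all sequences called is not given here. Without the 4 heat libraries high in miR8183, also chosen after seeing the data, the heat comparisons called 0 members.

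Outside H6 and Cu+ the same-numbered replicates did not all deviate together. In part they did, with correlations of 0.52, 0.64 and -0.16 in H0.5 against H0 and 0.35, 0.24 and -0.09 in D30 against C30. The replicate block left 1 call in NaCl+ and 1 in Cd+ (miR5023 and miR8175) and 0 in Cu-, where miR8175 had an adjusted p of 0.0539. It changed no other call among the members.

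Leaving out 1 library gave 0 to 4 calls in D20, 1 to 2 in NaCl+, 0 to 1 in Cu-, 1 to 5 in Cd+, 5 to 9 between organs and 0 to 1 for the drought level difference, and 0 elsewhere. The shares of all sequences called in these fits are not given here. The difference in members detected ranged from -0.67 to 1.5 (D30), -3.33 to 1.67 (D20), -2.0 to 1.0 (Cu+) and -2.5 to 1.33 (S-), and that of the summed level from -69.7 to 264 CPM (D30). At equal depth the difference in members detected was 0.0787 in D20, 1.47 in NaCl+ and -4.34 between organs (exact permutation p = 0.0476), and with at least 3 reads -2.17 between organs. Per 1000000 genome-mapped reads the summed level differed by -138 in D30, -607 in NaCl+ and -69.97 between organs. Between organs miR8183 ranged from -0.97 to 2.71 on the log2 scale with 1 library left out, and was 3.24 with the H0 and -0.61 with the C seedlings alone. Without miR5026 the organs differed by -178 CPM. The causes were not tested.

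Members below the count filter were tested only without the filter and by the F test. At 1018693 reads 3 reads correspond to 2.94 CPM.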
